A study of Saccharomyces cerevisiae with 15 samples.

Results

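The 2 single mutants compared here are budding yeast strains labelled yap1 and yap8, both exposed to arsenate (AsV), the pentavalent form of arsenic. The arrays were chosen by their titles: 3 arrays of yap1 after 60 min of arsenate and 3 arrays of yap8 after 60 min of arsenate, 6 of the 15 arrays of the series. The remaining arrays hold wild-type cells and a mutant lacking both genes and entered only 1 alternative fit, so a difference between the single mutants does not say which of them departed from wild type. The labels give genotype, agent and time only. The design text of the series gives arsenate at 2 mM, but it speaks of cultures kept in arsenate up to the exponential phase, and of a double mutant given plasmids that were empty or held one of the regulators. Whether that dose and those plasmids apply to the arrays labelled yap1 and yap8 is not settled by the labels.

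Yap1 and Yap8 are related basic leucine zipper transcription factors. Yap1 gathers in the nucleus under oxidative stress and on exposure to thiol-reactive compounds, and switches on genes for thioredoxin, glutathione, NADPH-dependent oxidoreductases and multidrug transporters. Yap8, encoded by ARR1, has a narrow set of known targets, the neighbouring genes ARR2 and ARR3. Arsenate enters yeast through phosphate transporters, is reduced to arsenite by the reductase Arr2, and leaves the cytosol through the plasma membrane transporter Arr3 or, bound to glutathione, through the vacuolar transporter Ycf1.

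Signals of 5588 genes were compared after quantile normalization of the 6 arrays, and all per-array values below are these normalized signals on a linear scale. Median deposited signal of the yeast genes ran from 668.7 to 939.8 per array, and 99% to 99.3% of the genes were called present on each. Across genes, which are not independent replicates, arrays of a group correlated at 0.9874 to 0.9936 and arrays of different groups at 0.961 to 0.9672. The array with the lowest median was yap1 replicate 1, and its log2 differences from the other yap1 arrays had an SD of 0.243 and 0.292, against 0.206 to 0.231 for the other pairs within a group. The labels do not say whether the 3 arrays of a group came from separate cultures, so the p-values measure the spread between arrays, which may be technical. Differences are given as log2 of yap1 over yap8 with their standard error (n = 3 arrays in each group), and adjusted p-values come from limma with Benjamini-Hochberg adjustment over the 5588 genes.

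The deleted genes were examined first. ARR1 signal was 2099, 2286 and 1948 on the yap1 arrays and 5.4, 4.3 and 5.3 on the yap8 arrays, where it was called absent 3 times, and was at least 421-fold higher in yap1 (adjusted p = 5.68e-08). YAP1 signal was 520, 652 and 688 in yap1 and 3234, 3082 and 3798 in yap8, a difference of -2.45 ± 0.13 (adjusted p = 3.08e-05). The groups did not overlap for either gene, and each mutant had the lower signal of its own gene. YAP1 was nevertheless called present on all 3 yap1 arrays. The position of its probes relative to the deleted part is not known here, and the source of the remaining signal was not tested.

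In total 1184 genes, 21.2% of those tested, passed an adjusted p of 0.05, and 1930 genes (34.5%) had an unadjusted p below it. Of these, 569 (10.2%) were lower in yap1 and 615 (11%) were higher. The larger differences were nearly all lower in yap1: 145 genes (2.59%) were at least 2-fold lower against 17 (0.304%) at least 2-fold higher, and 40 genes (0.716%) were at least 4-fold lower against 3 (0.0537%) at least 4-fold higher. Those 3 were ARR1, ARR2 and ANB1. The balance of small differences depended on scaling, since centring the arrays on their medians instead of their quantiles gave 679 lower and 326 higher genes. It moved the median of all genes from 0.04 to -0.02 on the log2 scale. When the difference had to exceed 1.2-fold to be called, 276 genes were lower and 79 higher in yap1.

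**Figure D1:**
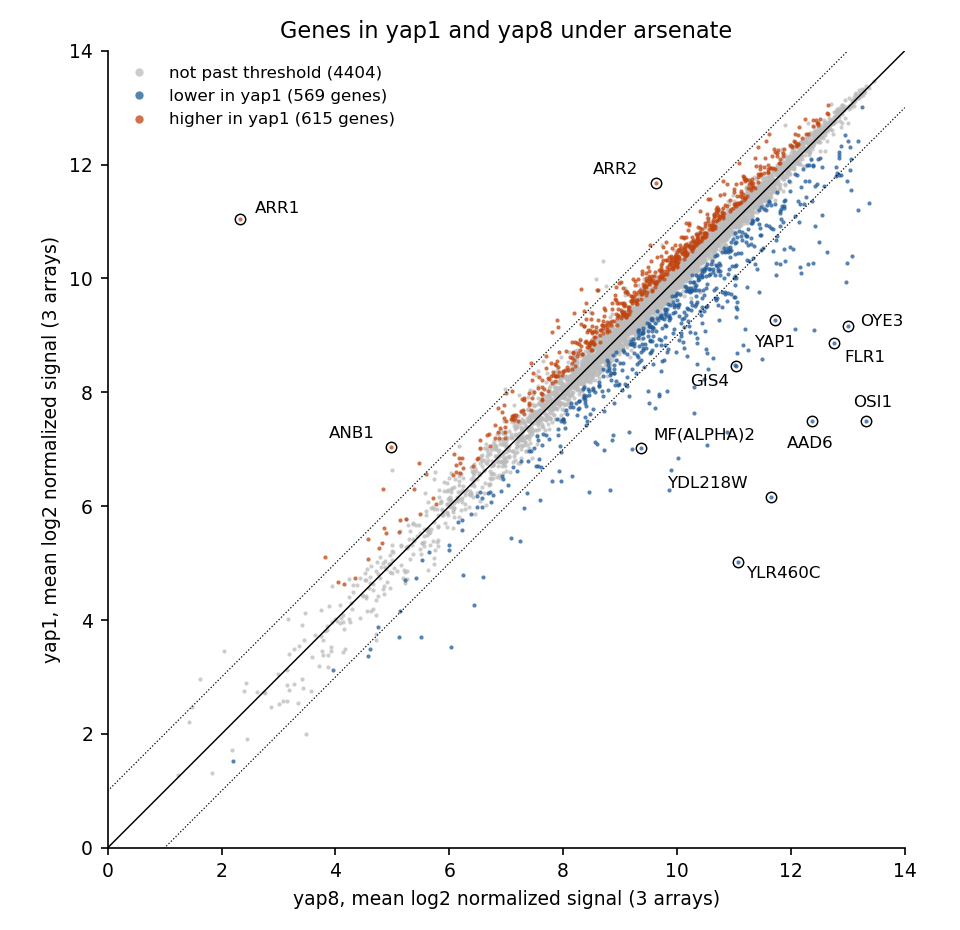
Mean log2 normalized signal of each of 5588 genes in yap8 (x axis) and yap1 (y axis), 3 arrays each; the solid line marks equal signal and the dotted lines a 2-fold difference. Genes past the adjusted p of 0.05 are coloured, 569 lower and 615 higher in yap1, and the points far from the line lie mostly below it, apart from ARR1, ARR2 and ANB1.

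The arsenic resistance genes split between the mutants. ARR2, the arsenate reductase gene, gave 3367, 3207 and 3312 in yap1 and 968, 815 and 628 in yap8, and was 4.16-fold higher in yap1 (2.06 ± 0.15, adjusted p = 0.000127). ARR3, the arsenite exporter gene, gave 2622, 2619 and 2851 in yap1 and 1884, 1297 and 1455 in yap8, and was 1.77-fold higher in yap1 (0.82 ± 0.14, adjusted p = 0.00645). Both genes were called present on every array without ARR1, and whether the difference in ARR2 exceeds that in ARR3 was not tested. Because both lie beside the deleted gene, loss of the regulator and the change at its locus cannot be told apart. On its other side, the drug transporter gene SGE1 (0.26 ± 0.15, adjusted p = 0.265) and YPR196W (-0.01 ± 0.12, adjusted p = 0.953) did not pass the test.

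YCF1, the vacuolar transporter gene, went the other way. Its signal was 1230, 1200 and 1227 in yap1 and 4938, 4924 and 5341 in yap8, a 4.15-fold lower level in yap1 (-2.05 ± 0.06, adjusted p = 1.91e-06). Of the phosphate transporters that can carry arsenate, PHO84 (-0.83 ± 0.17, adjusted p = 0.0155) and PHO89 (-0.54 ± 0.11, adjusted p = 0.0125) were lower in yap1. Both calls were lost without yap1 replicate 3, under the 1.2-fold requirement, and when all 15 arrays were fitted together. The related PHO87 differed by -0.15 ± 0.07 (adjusted p = 0.206). FPS1, the aquaglyceroporin that lets arsenite in, and HOG1, the stress kinase that acts on it, differed by 0.10 ± 0.06 (adjusted p = 0.24) and 0.14 ± 0.06 (adjusted p = 0.185).

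Known Yap1 targets were mostly lower in yap1. Of 50 measured genes of a list of 52, 37 were lower in yap1, 3 were higher and 10 did not pass, with a median of -1.04 against 0.04 for all genes. The lower and higher shares were 74% and 6%, against 10.2% and 11% of all genes. The arrays of the groups did not overlap for 45 of the 50, against 40.1% of all genes tested. The list supplied 17 of the 40 genes at least 4-fold lower in yap1 (42.5%) and 26 of the 145 at least 2-fold lower (17.9%). Its members were chosen from the literature with earlier results of these arrays known, so the count is a description. The members higher in yap1 were the riboflavin transporter gene MCH5 (0.78 ± 0.16, adjusted p = 0.0161), the polyamine transporter gene TPO1 (0.50 ± 0.10, adjusted p = 0.0135) and AAD10. The MCH5 call was lost without yap1 replicate 3 and without yap8 replicate 3.

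Among genes lower in yap1, YLR460C, OSI1 and YDL218W had the largest differences. YLR460C, of the quinone oxidoreductase family, gave 49.3, 25.2 and 27.9 in yap1 against 2043, 2357 and 2071 in yap8, a 66.0-fold difference (-6.05 ± 0.24, adjusted p = 9.41e-06). OSI1, named for its induction by oxidative stress, gave 144, 222 and 184 against 9938, 10112 and 10435 (-5.82 ± 0.15, adjusted p = 7.09e-07). The yap8 values of OSI1 lie near the brightest probe sets of these arrays, whose deposited maxima were 10797.7 to 11811.7. YDL218W, which has no standard name, gave 88.7, 63.3 and 66 against 3129, 3061 and 3511 (-5.49 ± 0.14, adjusted p = 6.59e-07). For each of these genes the lowest yap8 array was far above the highest yap1 array.

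Aryl alcohol dehydrogenases and old yellow enzymes followed. AAD6 gave 167, 179 and 199 in yap1 and 5472, 5143 and 5319 in yap8, a 29.3-fold difference (adjusted p = 1.44e-07). AAD4 gave 1256, 1236 and 1198 against 8387, 7634 and 8235 (-2.72 ± 0.06), and AAD3 was 2.07-fold lower. AAD14 did not differ past the threshold (0.03 ± 0.11, adjusted p = 0.874), and AAD10 was higher in yap1 (0.61 ± 0.09, adjusted p = 0.00515). The AAD genes are close copies of each other, and how far their probe sets share signal was not tested. OYE3, an NADPH-dependent old yellow enzyme, gave 603, 613 and 512 against 8190, 7936 and 8509 (-3.84 ± 0.09, adjusted p = 5.65e-07), and GRE2, a methylglyoxal reductase gene, gave 3245, 2079 and 2527 against 10773, 10435 and 10586 (-2.04 ± 0.15, adjusted p = 0.000146).

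Membrane transporters of drugs made up a further share. FLR1, a plasma membrane multidrug transporter gene, gave 515, 434 and 456 in yap1 and 6891, 6684 and 7140 in yap8 (-3.89 ± 0.08, adjusted p = 5.65e-07). YHK8, predicted to encode a drug transporter of the same superfamily, gave 86.1, 129 and 140 against 953, 988 and 1197 (-3.17 ± 0.19, adjusted p = 5.39e-05). ATR1, needed for resistance to aminotriazole, was 5.04-fold lower in yap1, and the ABC transporter genes SNQ2 and PDR18 were 1.96-fold and 2.48-fold lower. YRR1, a regulator of drug transporter genes, was also lower (588, 662 and 675 against 2095, 1967 and 2222). PDR5, the best known yeast drug pump, did not pass the threshold (-0.17 ± 0.06, adjusted p = 0.078). Over the 28 genes of the multidrug list, 10 were lower in yap1, 4 were higher (TPO1, TPO4, QDR2 and AQR1, by 0.34 to 0.54) and 14 did not pass. Lower and higher members made up 35.7% and 14.3%, against 10.2% and 11% of all genes.

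In thiol metabolism GPX2, a glutathione peroxidase gene, gave 595, 546 and 495 in yap1 and 5419, 5833 and 5108 in yap8 (-3.32 ± 0.09, adjusted p = 9.6e-07). GTT2, a glutathione transferase gene, gave 893, 1036 and 1014 against 7936, 8143 and 7872 (-3.03 ± 0.08, adjusted p = 6.59e-07). SRX1, which restores overoxidised peroxiredoxins, was 4.52-fold lower in yap1, and the omega-class transferase genes ECM4 and GTO3 were 3.91-fold and 3.13-fold lower. Thioredoxin reductase TRR1 (-1.13 ± 0.07), glutathione reductase GLR1 (-1.04 ± 0.07), mitochondrial peroxiredoxin PRX1 (-1.06 ± 0.13) and glutathione synthetase GSH2 (-0.81 ± 0.06) were lower by smaller amounts. GSH1, which catalyses the first step of glutathione synthesis, did not pass (-0.35 ± 0.11, adjusted p = 0.0692), nor did the thioredoxin gene TRX2 (-0.22 ± 0.09, adjusted p = 0.132) or the peroxiredoxin gene AHP1 (-0.01 ± 0.07, adjusted p = 0.96). AHP1 was bright in both mutants (9385, 8222 and 9191 in yap1 and 8902, 8826 and 9148 in yap8), close to the upper end of the arrays' range. Over both lists, 10 of 27 glutathione genes and 6 of 16 thioredoxin genes were lower in yap1, and 2 of each were higher (GRX1 and GRX6 at 0.24 and 0.43, DOT5 and MXR2 at 0.22 and 0.26). The lower shares were 37.0% and 37.5%, against 10.2% of all genes. The higher shares were 7.4% and 12.5%, near the 11% of all genes. The higher thioredoxin genes numbered 0 with median centring, without yap1 replicates 1 or 3 and without yap8 replicates 2 or 3, and 1 without yap8 replicate 1. The higher glutathione genes numbered 1 with median centring and with any array other than yap8 replicate 2 left out.

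Genes acting on superoxide and hydrogen peroxide were lower in yap1 in 5 of 7 cases (71.4%, against 10.2% of all genes), and the other 2 did not pass. CTA1, the peroxisomal catalase gene, gave 149, 115 and 122 in yap1 and 676, 662 and 460 in yap8 (-2.21 ± 0.17, adjusted p = 0.000178). CCS1, the copper chaperone of superoxide dismutase, gave 1263, 1212 and 1216 against 5464, 5666 and 4997 (-2.13 ± 0.07, adjusted p = 2.9e-06). SOD2, the mitochondrial superoxide dismutase gene, was lower (-0.58 ± 0.07), and the cytochrome c peroxidase gene CCP1 was 1.67-fold lower. The flavohaemoglobin gene YHB1, which detoxifies nitric oxide, gave 1190, 1936 and 1742 against 6182, 5558 and 5659 (-1.87 ± 0.17, adjusted p = 0.000439). SOD1 (-0.13 ± 0.06, adjusted p = 0.197) and the cytosolic catalase gene CTT1 (0.43 ± 0.15, adjusted p = 0.0952) did not pass.

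The remaining genes among the largest differences have less settled roles. CIS1, named for sensitivity to the mycotoxin citrinin, gave 146, 135 and 125 in yap1 and 1527, 1445 and 1467 in yap8 (-3.45 ± 0.08, adjusted p = 5.65e-07). MRX16, the nearest measured gene to YCF1 on one side, gave 522, 576 and 571 against 4369, 4267 and 4305 (-2.96 ± 0.07, adjusted p = 5.65e-07). YCR102C, of the same family as YLR460C, gave 168, 133 and 173 against 1889, 1936 and 1835 (-3.59 ± 0.11, adjusted p = 1.89e-06). Higher in yap1 were GID10, a subunit of a ubiquitin ligase (1.22 ± 0.15, adjusted p = 0.00148), and YOR186W (96.9, 58.6 and 85.7 against 29.1, 25.2 and 32.3). HAB1 gave 844, 399 and 537 against 240, 264 and 219, and its call was lost without yap8 replicate 3.

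**Figure D2:**
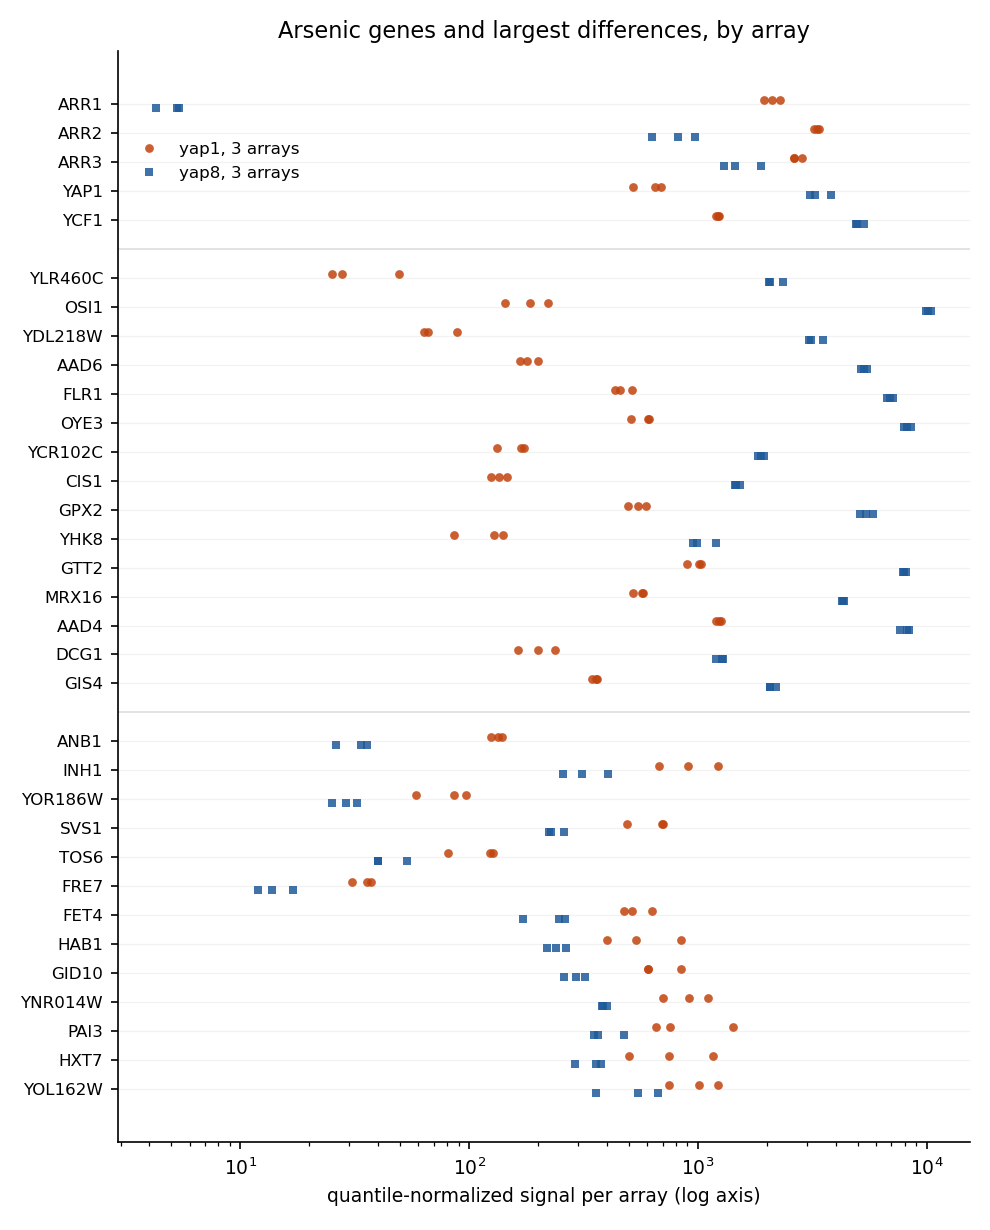
Normalized signal (log axis) on each of 3 yap1 arrays (circles) and 3 yap8 arrays (squares) for arsenic and regulator genes (top), the largest differences lower in yap1 (middle) and the largest differences higher in yap1 (bottom). The middle genes are separated by wide gaps, while for the bottom genes, apart from ANB1, the arrays of the groups lie closer together.

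NADPH supply genes were mixed. ALD6, the cytosolic acetaldehyde dehydrogenase that yields NADPH, gave 408, 178 and 238 in yap1 and 994, 818 and 918 in yap8 (-1.81 ± 0.28, adjusted p = 0.00463). The 6-phosphogluconate dehydrogenase genes GND2 (-1.33 ± 0.18) and GND1 (-0.72 ± 0.06) were also lower in yap1. The malic enzyme gene MAE1 was higher (0.81 ± 0.14, adjusted p = 0.00825). Of the 22 genes of this list, 3 were lower (13.6%) and 6 higher (27.3%) in yap1, against 10.2% and 11% of all genes. The higher count fell to 3 with median centring and without yap8 replicates 1 or 3, and to 1 under the 1.2-fold requirement.

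Among the relatives of YAP1, YAP7 was lower in yap1 (189, 268 and 187 against 796, 776 and 765, -1.88 ± 0.14, adjusted p = 0.000152). CIN5 gave 263, 70.6 and 112 in yap1 and 450, 409 and 406 in yap8 (-1.72 ± 0.42, adjusted p = 0.0294). Its yap1 arrays were far apart, with replicate 1 the highest, and the call was lost without yap1 replicate 3, with any one of the yap8 arrays left out and under the 1.2-fold requirement. CAD1, the closest relative of YAP1, did not pass (-0.21, adjusted p = 0.209).

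Iron is handled by a reductive uptake system at the plasma membrane, by carriers into mitochondria, and by the mitochondrial and cytosolic machineries that build iron-sulfur clusters. The cluster assembly genes, listed together with mitochondrial iron transporters such as MMT1 and MRS4, were picked out after their values had been seen. No test was made of the group. Of 27 measured genes 16 were lower in yap1 and 1 was higher, against 10.2% and 11% of all genes, with a median of -0.63. MMT1, a mitochondrial iron transporter gene, gave 362, 371 and 343 in yap1 and 2101, 2020 and 2135 in yap8 (-2.54 ± 0.06, adjusted p = 6.59e-07). IBA57, which acts late in mitochondrial cluster maturation, gave 337, 312 and 379 against 1304, 1514 and 1663 (-2.12 ± 0.11, adjusted p = 3.31e-05). The groups were far apart for both genes.

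The next largest differences, those of TAH18, LTO1 and NBP35, were in the cytosolic branch. TAH18, which passes electrons to Dre2, gave 335, 401 and 430 in yap1 and 1347, 1873 and 1596 in yap8 (-2.04 ± 0.14), while DRE2 itself was 1.81-fold lower (adjusted p = 0.000429). LTO1, an adaptor for cluster insertion into the ribosome recycling factor Rli1, was 3.86-fold lower, and its partner YAE1 did not pass (-0.18 ± 0.09, adjusted p = 0.227). NBP35 (-1.55 ± 0.07) and CFD1 (-0.98 ± 0.08), which form the cytosolic scaffold, were both lower, as were NAR1 (-0.96 ± 0.10) and CIA2 (-0.69 ± 0.08). In mitochondria, the scaffold gene ISU2 (2.83-fold), the iron carrier gene MRS4 (-1.16 ± 0.11) and ISA2 (-1.10 ± 0.06) were lower, and the cysteine desulfurase gene NFS1 was 1.56-fold lower. JAC1, a co-chaperone of the scaffold, was the one higher gene (0.26 ± 0.07, adjusted p = 0.0355), a call that was lost in 8 of 14 alternatives.

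**Figure D3:**
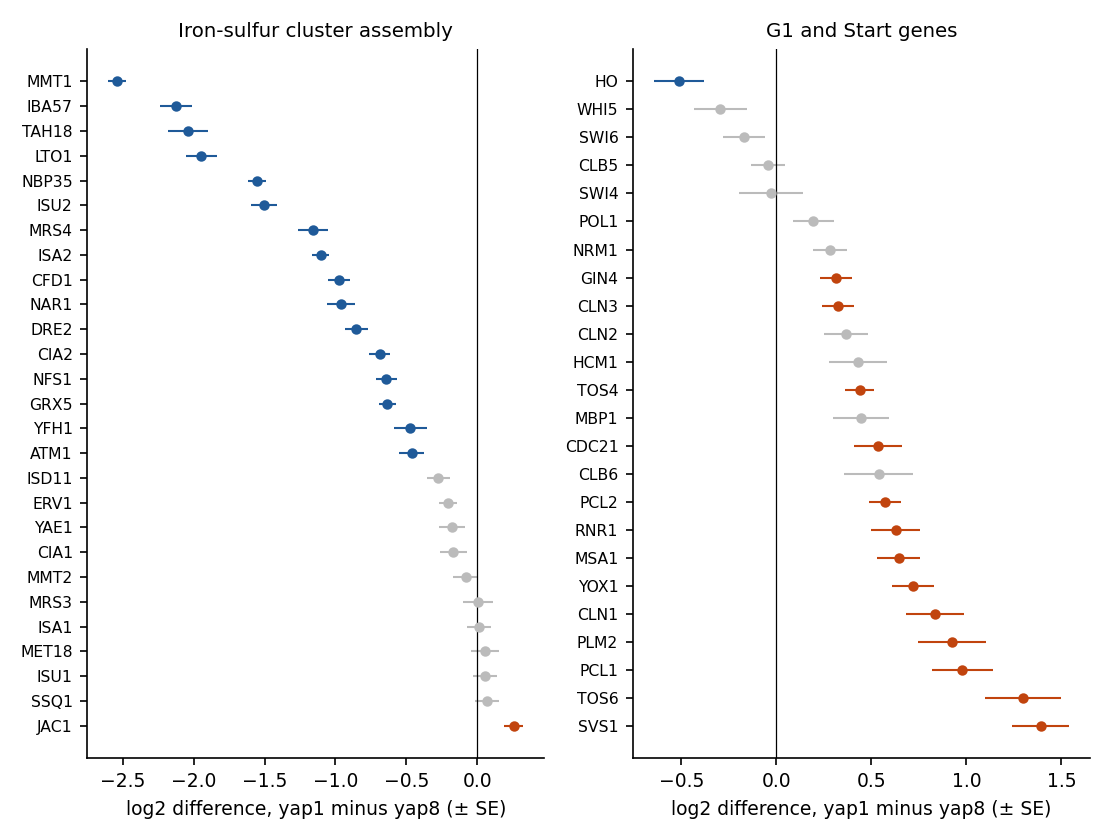
Log2 difference of yap1 minus yap8 with its standard error (3 arrays a group) for each of 27 iron-sulfur cluster assembly genes (left) and 24 G1 and Start genes (right), both picked after their values were seen; blue marks genes lower in yap1, red genes higher in yap1 and grey genes that did not pass an adjusted p of 0.05. The left set includes mitochondrial iron transporter genes. There 16 genes are lower, led by the transporter gene MMT1 at -2.54, and on the right 13 are higher, led by SVS1 at 1.39.

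Of 38 genes of iron uptake and mobilisation 10 were lower (26.3%) and 6 higher (15.8%) in yap1, against 10.2% and 11% of all genes. The lower genes include ISU2 and MRS4, already counted above with cluster assembly. With FRE1 they were the only members at least 2-fold lower. FRE1, the main cell surface ferric and cupric reductase gene, gave 238, 284 and 221 in yap1 and 848, 835 and 789 in yap8 (-1.74 ± 0.10, adjusted p = 5.04e-05). ARN1, a siderophore transporter gene, was 1.96-fold lower, and AFT2, a regulator of iron genes, gave 792, 989 and 895 against 1554, 1764 and 1522. FET4, the low-affinity iron transporter gene, went the other way (476, 628 and 514 in yap1 against 263, 247 and 172 in yap8, 1.26 ± 0.18, adjusted p = 0.00324). The haem oxygenase gene HMX1 was also higher in yap1 (0.87 ± 0.08, adjusted p = 0.000571). FRE7, a copper-regulated reductase gene, was dim and higher in yap1 (37.1, 30.9 and 35.7 against 17, 13.8 and 11.9, where it was called present on 2 of 3 arrays).

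Genes regulated by oxygen and haem held 8 lower (20%) and 12 higher (30%) members among 40, against 10.2% and 11% of all genes. ANB1, the hypoxic form of the translation factor eIF5A, gave 134, 124 and 139 in yap1 and 35.8, 33.6 and 26.1 in yap8 (2.07 ± 0.12, adjusted p = 5.42e-05). ROX1, the repressor of hypoxic genes, gave 644, 453 and 503 against 1451, 1329 and 1071 and was 2.42-fold lower in yap1 (adjusted p = 0.00186). Hypoxic genes that were higher in yap1 included TIR1, a cell wall mannoprotein gene (0.99 ± 0.10), HEM13, an oxygen-requiring haem synthesis gene (0.72 ± 0.08), OLE1, the fatty acid desaturase gene (0.49 ± 0.07), and COX5B, the hypoxic subunit of cytochrome oxidase (0.46 ± 0.09). DAN4 and TIR4, mannoprotein genes of the same anaerobic class as TIR1, were lower in yap1 by 3.30-fold and 3.07-fold. The members therefore did not share a direction. Ergosterol genes, which need oxygen and haem for several steps, gave 3 lower (ERG5, ERG6 and ERG11) and 9 higher of 26, led by ERG28 (0.79 ± 0.13, adjusted p = 0.00571). The lower share was 11.5%, near the 10.2% of all genes, and the higher share was 34.6% against 11%. The ERG11 call was lost in 8 of 14 alternatives, including each array left out. The count of higher genes fell to 5 with median centring or without yap1 replicate 3, and to 2 under the 1.2-fold requirement.

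The G1 and Start genes, also picked after their values were seen, gave 13 higher and 1 lower of 24, against 11% higher and 10.2% lower over all genes, with a median of 0.44. SVS1, a cell wall gene of late G1, gave 701, 490 and 695 in yap1 and 261, 224 and 227 in yap8 (1.39 ± 0.15, adjusted p = 0.000867), and TOS6 gave 123, 81.1 and 127 against 53.7, 39.9 and 39.9 (1.30 ± 0.20, adjusted p = 0.00471). Among the cyclins of this phase, CLN1 (0.84 ± 0.15, adjusted p = 0.00956), PCL1 (0.98 ± 0.16, adjusted p = 0.00651) and PCL2 (0.57 ± 0.08, adjusted p = 0.00412) were higher. CLN2 (0.37 ± 0.12, adjusted p = 0.0656) and CLB5 (-0.04 ± 0.09, adjusted p = 0.773) did not pass. In RNA from whole cultures, a larger share of cells in 1 phase and more RNA per cell cannot be told apart. Under the 1.2-fold requirement 4 of the 24 remained called as higher.

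The genes of branched-chain amino acid synthesis, picked in the same way, gave 7 higher and none lower of 13 in limma (11 higher and none lower at an unadjusted p under 0.05), with a median of 0.39. Over all genes 11% were higher and 10.2% lower by adjusted p. The count of higher branched-chain genes was 5 under the 1.2-fold requirement, 10 with an intensity trend in the variance, and 5 to 9 with 1 array left out. The 7 higher genes included LEU1 (3762, 4726 and 4083 in yap1 against 2087, 2316 and 2118 in yap8), LEU9 (0.69 ± 0.10), ILV5 (0.61 ± 0.08) and the transaminase gene BAT1 (0.76 ± 0.09). LEU2 belongs to this pathway and is also a common plasmid marker, and it gave 4392, 5691 and 5230 in yap1 and 3151, 2725 and 2381 in yap8 (0.89 ± 0.13, adjusted p = 0.00415). The wider list of amino acid genes controlled by Gcn4, the general regulator of amino acid synthesis, gave 11 higher (19.6%) and 3 lower (5.4%) of 56. The higher count was 21 with an intensity trend in the variance, 7 without yap1 replicate 3 or without yap8 replicate 3, and 6 under the 1.2-fold requirement. The lower members were LYS20, of lysine synthesis (-0.57 ± 0.07, adjusted p = 0.00194), ARG3 (-0.45) and GLT1 (-0.35).

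General stress and carbohydrate reserve genes gave 18 higher (39.1%) and 3 lower (6.5%) of 46, against 11% and 10.2% of all genes. The list median was 0.28. INH1, an inhibitor of the mitochondrial ATPase, gave 1221, 677 and 902 in yap1 and 406, 312 and 256 in yap8 (1.51 ± 0.24, adjusted p = 0.00578). PAI3, an inhibitor of vacuolar proteinase A, gave 1420, 754 and 654 against 364, 476 and 352 (1.17 ± 0.28, adjusted p = 0.0278), a call that was lost without yap8 replicate 1 or 3. The glycogen phosphorylase gene GPH1 gave 4093, 2774 and 3326 against 1907, 1663 and 1826. For these genes yap1 replicate 1 was the highest array, as it was for SIP18 (2808, 461 and 824 in yap1 against 365, 443 and 340 in yap8), which did not pass (adjusted p = 0.136). The count of higher genes was 12 without yap1 replicate 1, 8 without yap1 replicate 3, and 10, 10 and 8 without yap8 replicates 1, 2 and 3, but 23 without yap1 replicate 2. It was 12 with median centring, 9 with all 15 arrays, 25 with an intensity trend and 2 under the 1.2-fold requirement. The lower genes were the trehalase gene NTH2 (-1.22 ± 0.09, adjusted p = 0.000114), GND2 and ALD4. HXT7, a high-affinity glucose transporter gene, was higher in yap1 (1168, 500 and 748 against 377, 290 and 357), and that call was lost without yap1 replicate 3 and with any one of the yap8 arrays left out. How far the HXT7 probe set shares signal with other hexose transporter genes was not tested.

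**Figure D4:**
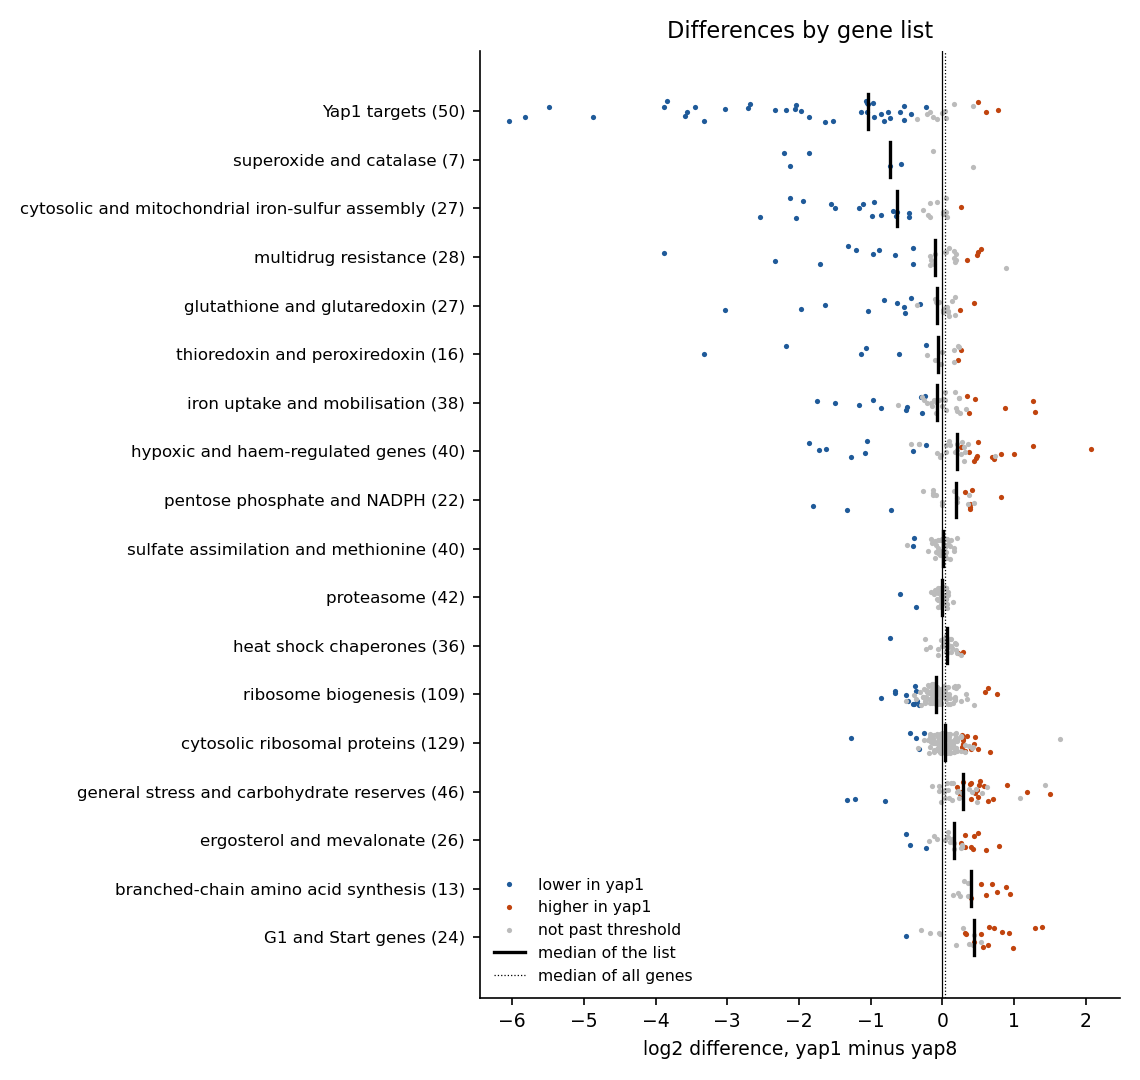
Log2 difference of yap1 minus yap8 for every measured gene of 18 lists (number of genes in brackets); colours mark genes past an adjusted p of 0.05, the thick bars are list medians and the dotted line is the median of all genes, 0.04. Yap1 targets reach from -6.05 to 0.78, while the 40 sulfate genes lie between -0.50 and 0.20. The value of -0.50 is that of MET17, which was dim in both mutants and did not pass.

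Other groups known to respond to arsenic held few calls in the main fit, which does not show that the mutants were alike. Over all genes 10.2% were lower and 11% higher in yap1. The lower shares were 5% of the sulfate, 4.8% of the proteasome and 2.8% of the heat shock genes below. The higher share was 5.6% of the heat shock genes. Of 40 genes of sulfate assimilation and methionine synthesis, which supply the cysteine of glutathione, 2 were lower in yap1 and none was higher by limma's adjusted p, while 3 were higher at an unadjusted p under 0.05. Those 2 were MUP3, a low-affinity methionine permease gene (-0.41 ± 0.08, adjusted p = 0.011), and JLP1, a sulfonate dioxygenase gene (-0.39 ± 0.08, adjusted p = 0.0117). Neither call held under the 1.2-fold requirement, and that of MUP3 was also lost with all 15 arrays. SUL1, the sulfate permease gene, gave 3946, 4288 and 4531 in yap1 and 4022, 4209 and 4466 in yap8, with a 95% interval of the log2 difference from -0.18 to 0.19. Of 42 proteasome genes 2 were lower, the regulator RPN4 (-0.60 ± 0.08, adjusted p = 0.00239) and the subunit gene PRE8 (-0.37 ± 0.07, adjusted p = 0.00926). Of 36 heat shock genes 1 was lower and 2 were higher (HSP78 and OPI10), and the lower gene was HSP31, a methylglyoxalase of the DJ-1 family (-0.72 ± 0.07, adjusted p = 0.000593). Neither HSP78 nor OPI10 was called without yap1 replicate 2 or 3 or with any one of the yap8 arrays left out. Without yap1 replicate 1 HSP78 kept its call and OPI10 lost it. Without yap1 replicate 2 the 1 gene called higher was another member of the list. With an intensity trend in the variance, 2 of the 36 heat shock genes were lower and 9 higher. In that setting 763 of the 5588 genes tested were higher.

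Growth-related lists showed few large differences. Of 129 cytosolic ribosomal protein genes 5 were lower and 13 higher in yap1, with a median of 0.03; the shares over all genes were 10.2% and 11%. The lower count was 2 without yap1 replicate 3 and 3 with any one of the yap8 arrays left out, but 7 with median centring or without yap1 replicate 2. The higher count was 6 with median centring, 7 without yap1 replicate 1, 8 without yap1 replicate 3, 5 without yap8 replicate 1 and 3 without yap8 replicate 3, and none was higher under the 1.2-fold requirement. It rose to 16 without yap8 replicate 2, 18 with all 15 arrays and 19 with an intensity trend. RPL10, a subunit joining late in assembly, gave 3387, 3517 and 3222 in yap1 and 8312, 7892 and 8222 in yap8 (-1.27 ± 0.06, adjusted p = 2.51e-05). Of 109 ribosome biogenesis genes 11 were lower, close to the 10.2% of all genes, and 3 were higher (ESF1, JJJ1 and SDA1, by 0.60 to 0.76). The SDA1 call was lost in 8 of 14 alternatives and the ESF1 call in 5. The lower count was 6 without yap1 replicate 1 or with all 15 arrays, 3 without yap1 replicate 3, 4 without yap8 replicates 2 or 3, and 1 under the 1.2-fold requirement. It rose to 15 with the replicate block, and to 13 with median centring, with an intensity trend or without yap1 replicate 2.

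Strain markers were compared because the labels give no background. URA3 was bright in both mutants (4356, 5307 and 4914 in yap1, 5866, 5978 and 5580 in yap8, adjusted p = 0.0739). LYS2 was called absent on all 6 arrays, and MET17 was dim throughout (3.9 to 7.9 in yap1 and 6.4 to 13.5 in yap8). All 4 genes specific to MATalpha cells were well detected, among them SAG1 at 766, 768 and 806 in yap1 and 770, 697 and 710 in yap8. The MATa receptor gene STE2 was at 48.7 to 63.9 in yap1 and 49.8 to 68.3 in yap8, and none of the 7 MATa genes passed limma's test, with or without adjustment of p. The MATalpha genes themselves differed between the mutants: the pheromone gene MF(ALPHA)2 gave 135, 113 and 144 in yap1 and 708, 696 and 588 in yap8 (-2.35 ± 0.11, adjusted p = 2.27e-05), whereas STE3, the a-factor receptor gene, was 1.63-fold higher in yap1.

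Next to YAP1 itself, GIS4, which faces it tail to tail, gave 361, 357 and 345 in yap1 and 2057, 2191 and 2055 in yap8 (-2.57 ± 0.06, adjusted p = 6.59e-07). On the other side MIN4 (0.04 ± 0.07, adjusted p = 0.69) did not pass and ERG6 was 1.36-fold lower (adjusted p = 0.00363), while TRM12, beyond GIS4, did not pass (-0.05 ± 0.14, adjusted p = 0.83). For GIS4, loss of Yap1 and the change at its locus cannot be told apart.

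Many of the genes above have a paralogue, and the values of both copies are set side by side here. OYE2, the sister of OYE3, was 1.51-fold lower in yap1 against 14.3-fold for OYE3. GTT1 (-0.07 ± 0.10), HYR1 (0.22, adjusted p = 0.073), ISU1 (0.05 ± 0.09), MRS3 (0.01 ± 0.10) and TRR2 (-0.02, adjusted p = 0.863) did not pass, while their partners GTT2, GPX2, ISU2, MRS4 and TRR1 were lower. The differences between partners were not tested as such. The cytochrome c genes moved in opposite directions: CYC1, the aerobic form, gave 795, 812 and 805 in yap1 against 1625, 1693 and 1664 in yap8 (-1.05 ± 0.06, adjusted p = 3.64e-05), and CYC7, the hypoxic form, gave 2561, 1531 and 2113 against 1226, 1086 and 1131 (0.82 ± 0.18, adjusted p = 0.0176). The CYC7 call was lost in 5 of 14 alternatives, among them the arrays without yap1 replicate 3 and without yap8 replicates 2 or 3. HYP2, the aerobic partner of ANB1, did not pass (0.10, adjusted p = 0.456).

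**Figure D5:**
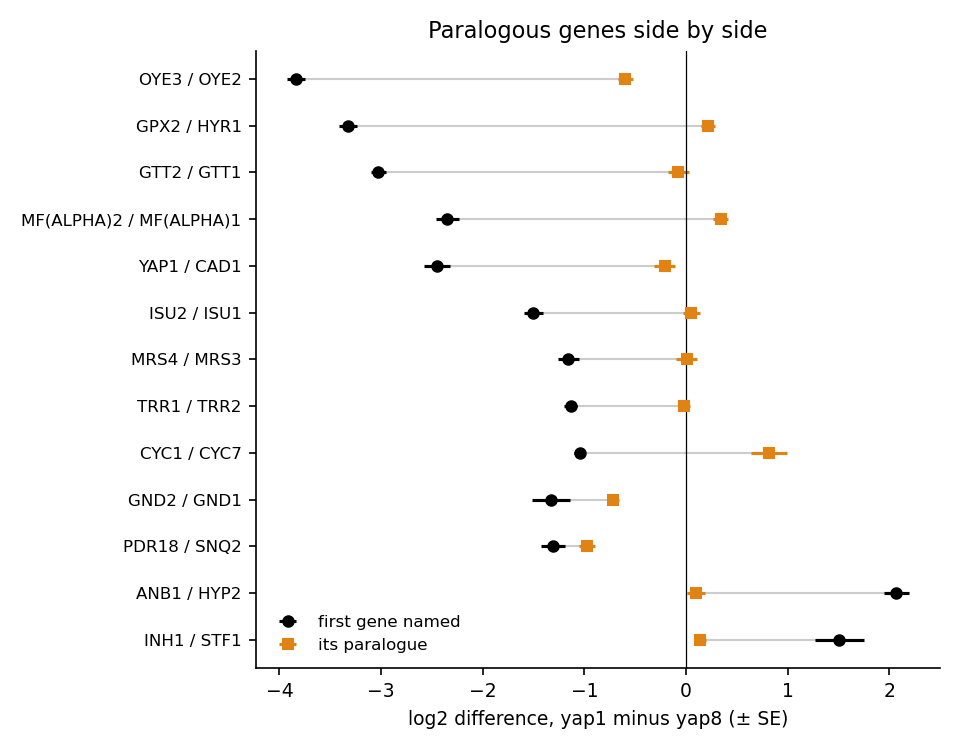
Log2 difference of yap1 minus yap8 with its standard error (3 arrays a group) for 13 pairs of paralogous genes; circles are the first gene named and squares its paralogue. OYE3, GPX2, GTT2 and MF(ALPHA)2 lie far to the left of their partners, and CYC1 and CYC7 lie on opposite sides of zero.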

How the data were processed

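RNA was isolated with hot phenol and labelled with biotin, per the labels' protocols. The deposited file of each array holds a linear signal intensity for each of 10928 probe sets and a detection call, per the file headers. The submitters' processing notes name Partek with no version, and how probes were summarised is not given in the sources used. The deposited workbook was used for gene names only. Of the probe sets, 5638 matched 1 yeast gene by the platform annotation or that workbook. For 48 genes with several sets the one with the highest mean was kept, which left 5588 genes. Gene order was taken from a gene table of assembly R64, and no coordinates or sequences are given.

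Intensities of the 6 arrays were quantile normalized over all probe sets, a floor of 1 was applied, and values were put on the log2 scale. Groups were compared with limma 3.58.1 in R 4.3.3 (lmFit, eBayes, two-sided, Benjamini-Hochberg, threshold 0.05), a procedure tested on simulated data. Where every array of 1 group called a gene absent, its fold is a bound. The number of arrays limits the precision. Genes were named by a rule: regulator and arsenic genes, their 2 neighbours on either side, the 12 largest differences in each direction with a standard symbol and 3 without among called genes whose groups did not overlap (40.1% of all genes), up to 6 called genes per list and its largest exception in direction, any Yap1 target or hypoxic gene, marker genes, and paralogues. Further examples were added after their values were seen, namely the cluster assembly, G1 and branched-chain genes, the list members SIP18, AFT2, HMX1, SUL1, AQR1, DOT5, GRX1, ARG3 and GLT1, and members and partners named as not passing. The members and lists were chosen with earlier results of these data known. Deviations of same-numbered arrays correlated at -0.029, 0.173 and 0.124, and those of differently numbered arrays at -0.182 to 0.078. The labels do not say whether the replicate numbers pair the samples. The main fit was therefore unpaired, and the replicate block served as an alternative. Alternatives covered normalization, added constants, dim probe sets, several probe sets, variance trend, fold requirement, replicate block and left-out arrays.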

Additional observations from a re-analysis of the deposited data

How the results depend on the processing

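The count of 1184 called genes became 355 when a difference had to exceed 1.2-fold (276 lower, 79 higher). Median centring left 326 higher genes. Leaving out 1 array at a time gave 721 to 1131 called genes, 431 to 555 lower and 290 to 576 higher. The 2 lowest totals came without yap1 replicate 3 (721, with 290 higher) and without yap8 replicate 3 (748, with 309 higher), and the higher genes were 349 and 402 without yap8 replicates 1 and 2. Each of these fits has 1 array fewer, and why the totals differ was not tested. Genes at least 2-fold lower stayed at 141 to 150, and those at least 2-fold higher at 16 to 33, the 33 arising without yap1 replicate 2. With the replicate number as a block, 1107 genes were called (541 lower, 566 higher), 995 of them shared with the unblocked fit. All 15 arrays gave 1217, of which 1010 were shared. Under the 1.2-fold requirement the lower and higher list members were 34 and 0 for Yap1 targets, 14 and 0 for cluster assembly, 7 and 0 for multidrug, 6 and 0 for glutathione, 4 and 0 for thioredoxin, 6 and 5 for hypoxic and 5 and 3 for iron uptake genes. Of 202 named genes past the threshold, 114 kept their call in all 14 alternatives and 88 lost it in at least 1. None of the named calls changed direction in the alternatives run. Signals near the upper end of the arrays and probe sets near background limit the folds given.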

Other observations

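Some genes that were at least 2-fold lower in yap1 (2.59% of all genes) were next to each other on a chromosome. Of 5274 adjacent pairs of measured genes, 21 (0.398%) had both members at least 2-fold lower in yap1, and 37 of the 145 such genes lay in these pairs. Of the pairs, 12 were on the same strand, 7 diverged and 2 converged, while 1 pair had both members at least 2-fold higher. That higher pair was ARR1 with ARR2, and 1 of the 2 converging pairs was YAP1 with GIS4, so each of them holds a deleted gene. The orientations of all adjacent pairs were not counted. Whether lower genes are adjacent more than unrelated genes would be was not tested. YKL070W, next to OSI1, gave 100, 100 and 99 in yap1 and 918, 832 and 1135 in yap8 (-3.26 ± 0.11). The longest run lay near an end of chromosome III and held YCR102C (-3.59), PAU3 (-1.35), ADH7 (-1.12), RDS1 (-1.47) and AAD3 (-1.05), flanked by YCR101C (-0.02, adjusted p = 0.95) and YCR108C (0.23). PAU and AAD genes have close copies elsewhere, and how far these probe sets share signal was not tested. Apart from YAP1, ARR1 and their neighbours GIS4 and ARR2, the genes of this paragraph were chosen after their values were seen.

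Some of the large differences fell in genes outside the lists above, and these too were chosen after their values were seen. ASE1, which bundles microtubules in the mitotic spindle, gave 433, 413 and 399 in yap1 and 2123, 2146 and 2122 in yap8 (-2.36 ± 0.06, adjusted p = 7.13e-07). DIG2, a repressor of mating genes, gave 310, 257 and 254 against 1327, 1316 and 1134 (-2.20 ± 0.10, adjusted p = 2.08e-05). AGX1, the alanine glyoxylate aminotransferase gene, gave 468, 365 and 459 against 2488, 2254 and 2559 (-2.50 ± 0.11, adjusted p = 1.58e-05). Of 20 sporulation genes 4 were lower in yap1, none was higher by limma's adjusted p (2 at an unadjusted p under 0.05) and 16 did not pass, with a median of -0.03. The lower share was 20%, against 10.2% of all genes, while 11% of all genes were higher. Outside that list DTR1, a dityrosine transporter gene, was called absent on all 3 yap1 arrays and was at least 5.64-fold lower there (75.6, 61.2 and 60.3 in yap8, adjusted p = 0.000486), and the listed spore wall genes DIT1 and DIT2 were 1.57-fold and 1.38-fold lower. The DIT2 call was lost with all 15 arrays and under the 1.2-fold requirement, and that of ZIP1, also among the 4, in 8 of 14 alternatives. IME1 and IME2, the regulators that start sporulation, differed by -0.10 and 0.32 and did not pass. The allantoin pathway neighbours DCG1 (200, 163 and 238 in yap1 against 1285, 1202 and 1274 in yap8) and DAL7 (-1.26 ± 0.08) were lower together.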
